A study of Mus musculus with 16 samples.

Results

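Tumours sampled 48 h into treatment with ADH-503 were compared with tumours of vehicle-treated mice across all genes on the array. The comparison takes every sample whose time label is 48 h, 5 arrays, and every sample whose treatment label is vehicle, 6 arrays, which is 11 of the 16 arrays in the series; the other 5 are tumours at 10 days of ADH-503 and entered the model only to help estimate the spread and the slide effect. All samples are tumour tissue from female C57BL/6 mice with orthotopic pancreatic cancer. The titles of the 48 h samples name the compound LA1, taken here as ADH-503, their treatment label. For vehicle samples the time is labelled only as control, so how long those mice had been dosed is not known. Dose, route, the tumour line and the age of the mice are not given in the sources used here, nor whether animals were pooled. The titles carry ID numbers, which differ between the 11 arrays except in the pair described below. The labels do not say that such a number names an animal. The p-values therefore measure only the spread between these arrays, which may be technical in part. Of 37008 gene names on the array, 30582 were tested, each through its probe of highest mean signal on the 16 arrays.

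ADH-503 is a small-molecule agonist of CD11b. This integrin alpha M chain is encoded by Itgam and pairs with the beta 2 chain, encoded by Itgb2, to form the receptor known as Mac-1 or complement receptor 3, which neutrophils, monocytes and macrophages use to adhere to endothelium and to take up complement-coated particles. Such cells are abundant in pancreatic tumours, where they are known for holding back T cells. Orthotopic tumours grow inside the pancreas, so a sample can also hold acinar cells, which secrete digestive enzymes, and islets, which secrete hormones. In bulk RNA, fewer cells of a type and less RNA per cell cannot be told apart.

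Values are log2 signals relative to the 75th percentile of their array, and a difference is the 48 h mean minus the vehicle mean on that scale. On the 11 arrays the 75th percentile over probes was 4953 to 6736 in processed signal, and the share of probes well above background was 76.6% to 80.4%. Across genes the arrays correlated at r = 0.948 to 0.976, with a mean of 0.960 within groups and 0.962 between them. The arrays lie on 2 slides, each a scan of its own, that hold the groups unequally: slide 1 holds 4 of the 48 h arrays and vehicle replicate 1, and slide 2 holds 48 h replicate 5 and the other 5 vehicle arrays. Values from a fit with slide as a block are therefore given beside many of the results. That fit takes the slide effect from all 16 arrays, those at 10 days included, so its value need not lie between those within the slides. A difference within slide 1 rests on a single vehicle array and one within slide 2 on a single 48 h array. The titles of vehicle replicate 2 and 48 h replicate 5 carry the same ID number, whereas the first of them has a different number in its description; the pair correlated at r = 0.949, the third lowest of 55 pairs. Markers of the labelled tissue were present: all 21 tested genes of the ductal and tumour epithelium list and all 15 of the macrophage list were well above background on all 11 arrays.

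No gene passed the test with all 11 arrays. In limma with Benjamini-Hochberg adjustment, 0 of 30582 genes (0%) had an adjusted p under 0.05, and the smallest adjusted p was 0.99998; with slide as a block 0 genes (0%) passed and the smallest was 0.253. At an unadjusted p under 0.05 stood 783 genes (2.56%), 266 of them higher at 48 h (0.87%) and 517 lower (1.69%), and with slide as a block 980 genes (3.20%) did, 313 higher (1.02%) and 667 lower (2.18%). Vehicle replicate 1, the only vehicle array on slide 1, bore on these counts: without it 1 gene passed the adjusted threshold and 1001 genes were lower at an unadjusted p under 0.05, and with slide as a block as well 1027 were higher and 2538 lower. Without vehicle replicate 5 also 1 gene passed. The 48 h arrays lay wholly above the vehicle arrays for 22 genes (0.0719%) and wholly below for 21 (0.0687%). Over all genes tested 46.8% had a difference above 0 and 53.2% below 0 (48.4% and 51.6% with slide as a block), and the median difference was -0.01. Every single gene described below had a limma adjusted p of at least 0.99998, so its difference is given with its standard error (SE) and no p of its own.

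The target itself was measured with 2 probes. One of them, in the coding sequence, starts at base 270 of the transcript and lies at chr7:135212140-135212199 on mm9, plus strand. It is shown, in lower case, because it fixes which end of the message this probe read, while the main values come from the other probe:

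Itgam: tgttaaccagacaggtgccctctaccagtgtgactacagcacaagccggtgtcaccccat

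The other Itgam probe, at chr7:135261755-135261814, starts at base 4431 and is the one the rule took. It read 4.98, 4.98, 4.999, 5.19 and 5.39 on the 48 h arrays, and a lowest of 4.87, a median of 5.04 and a highest of 5.47 on 5 vehicle arrays, the spot of vehicle replicate 3 being an outlier that was left out. The ranges overlapped almost entirely. Means were 5.11 ± 0.18 (SD, n = 5) and 5.11 ± 0.22 (SD, n = 5), and the 95% confidence interval of the difference ran from -0.26 to 0.26. The sign of a difference this near 0 turned between fits (0.07 with slide as a block). The first probe differed by 0.05 (SE 0.14). Itgb2 averaged 5.02 ± 0.09 (SD, n = 5) at 48 h and 4.95 ± 0.16 (SD, n = 6) in vehicle, a difference of 0.08 with an interval from -0.14 to 0.29 and of -0.02 within slide 1. Among the 14 beta 2 integrins and partners none reached an unadjusted p under 0.05 (2.56% of all genes). Of them 4 were higher and 10 lower (46.8% and 53.2% of all genes), and the median was -0.03. With slide as a block the count turned to 9 higher and 5 lower, with a median of 0.04. Icam1, an endothelial and leukocyte ligand of Mac-1, differed by -0.20 (SE 0.14; 0.05 within slide 1). Itgad, the alpha D chain of another beta 2 integrin, spanned -6.26 to -1.47 at 48 h and -3.54 to 1.84 in vehicle, too wide a spread for a direction.

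The acinar cell list had the highest median difference of the 43 lists described. Of the 29 measured, 27 were higher at 48 h (46.8% of all genes), 13 had an unadjusted p under 0.05 in that direction (0.87% of all genes), and 6 had 48 h arrays wholly above the vehicle arrays (0.0719%). Their median difference was 0.89. Mean log2 signal over the list was 1.38 ± 0.21 (SD, n = 5) at 48 h and 0.50 ± 0.61 (SD, n = 6) in vehicle. By array it read 1.62, 1.27, 1.44, 1.08 and 1.497 at 48 h and 0.56, 1.14, 0.25, 1.17, -0.46 and 0.35 in vehicle. The 48 h arrays were close together, while vehicle replicates 2 and 4 reached their level, vehicle replicate 5 was the lowest, and the groups overlapped.

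**Figure D1:**
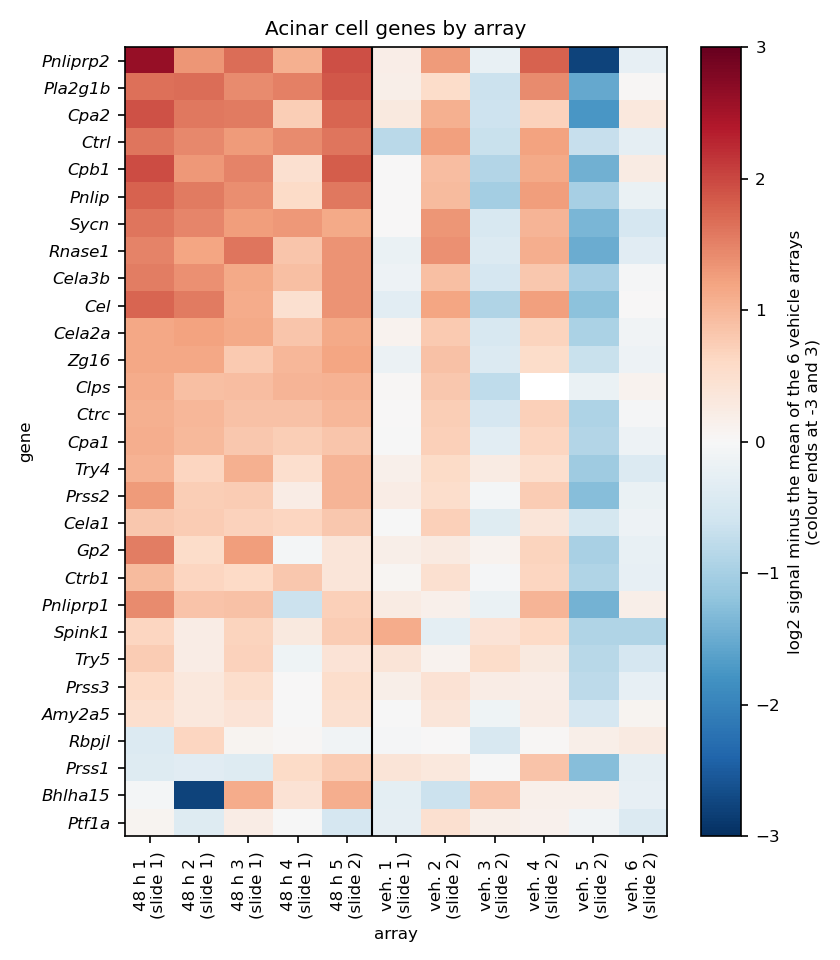
Heat map of the 29 acinar genes (rows, by difference) on the 5 ADH-503 48 h arrays and 6 vehicle arrays (columns, with their slide); colour is log2 signal minus the mean of the vehicle arrays, and white for Clps on vehicle replicate 4 marks a spot left out. Most enzyme genes are red on all 5 of the 48 h arrays and on vehicle replicates 2 and 4, vehicle replicate 5 is mostly blue, and the transcription factors in the lowest rows show no such pattern.

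By role, all 14 protein-digesting enzymes were higher, with a median of 0.87. Ctrl, a chymotrypsin-like protease, read 2.84, 2.67, 2.52, 2.66 and 2.84 at 48 h and 0.42, 2.45, 0.56, 2.44, 0.55 and 0.96 in vehicle. No vehicle array reached the lowest 48 h array, but replicates 2 and 4 came close to it. The difference was 1.47 (SE 0.54), 2.25 within slide 1, 1.44 within slide 2 and 1.18 with slide as a block. Cela2a, a pancreatic elastase, read 3.999, 4.05, 3.97, 3.66 and 3.98 at 48 h and 2.94, 3.62, 2.35, 3.49, 1.87 and 2.73 in vehicle. Its groups were just apart, and the difference was 1.098 (SE 0.43); another Cela2a probe went the opposite way. Cela3b (1.26), Ctrc (0.96) and Cpa1 (0.89), an elastase, a chymotrypsin and a carboxypeptidase, were also without overlap between groups; with slide as a block Cela3b differed by 0.82 and Cpa1 by 0.49. Cela1, another elastase, was higher by 0.74 (SE 0.26), with vehicle replicate 2, at 3.36, inside the 48 h range of 3.31 to 3.47. Trypsin transcripts come from near-identical genes whose probes may share signal.

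All 6 genes of fat digestion were higher as well, with a median of 1.32. Pla2g1b, the secreted pancreatic phospholipase, was higher by 1.62 (SE 0.61), or 0.98 with slide as a block, though another of its probes went the opposite way. Clps, the cofactor of pancreatic lipase, averaged 3.67 ± 0.09 (SD, n = 5) against 2.67 ± 0.57 (SD, n = 5; 1 vehicle spot was left out) and its groups did not overlap; with slide as a block the difference was 0.53. The other 6 secreted or granule proteins were all higher, with a median of 0.89, among them the granule lectin Zg16 (1.06, SE 0.39). The 3 transcription factors of acinar identity had differences smaller than their SEs. Ptf1a, which opens the acinar program, stood at -0.11 (SE 0.18) and its partner Rbpjl at 0.05 (SE 0.20). The signal of Ptf1a was low, from -4.09 to -3.36 at 48 h. Bhlha15, which shapes the secretory apparatus, stood at -0.04 (SE 0.60), or 0.47 with slide as a block. Bhlha15 read from -7.03 to -3.13 at 48 h, too wide a spread to tell whether it moved with the enzymes.

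With slide as a block 25 of the 29 acinar genes were still higher, but 0 of them had an unadjusted p under 0.05 and the median was 0.53. It was 0.91 within slide 1 and 1.05 within slide 2. The block median lies below both because that fit takes the slide effect from the arrays at 10 days as well. With slide as a block the median was 0.29 without vehicle replicate 1 and 0.20 without 48 h replicate 5. Without vehicle replicate 5 the plain median was 0.72 and 4 genes had an unadjusted p under 0.05, and without vehicle replicate 2 and 48 h replicate 5, the pair that shares an ID number, the median was 1.05 with 13 such genes. Islets are the other normal tissue of the pancreas. Of 9 islet genes tested 3 were higher and 6 lower (46.8% and 53.2% of all genes). Their median was -0.06, or -0.27 with slide as a block. The insulin genes had another pattern over the arrays than the acinar list. Ins2, an insulin gene, read between -0.74 and -0.51 on the 48 h arrays and between -0.81 and -0.30 on 4 vehicle arrays, but 3.33 and 1.75 on vehicle replicates 1 and 4. Ins1, the other insulin gene, showed the same 2 arrays high, at 3.08 and 1.41. How much normal pancreas each sample held was not tested.

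Promoters of 23 of the 29 acinar genes were matched to RefSeq (GRCm38.p6), and the 250 bases before the start were searched on both strands for both elements of the motif of PTF1, the acinar transcription factor complex: the E-box CACCTG and the TC-box TTTCCC. The E-box was found in 13 of 23 (56.5%), against 17.1% of 27025 promoters of the same length, and the TC-box in 7 (30.4%), against 21.9%. Both were found in 5 (21.7%), against 3.63%. A match is a description of the letters only. Of the 6 acinar genes whose groups did not overlap, 4 had a matched promoter, and all 4 are shown: Cela2a (chr4:141826006-141826255, minus strand), Cela3b (chr4:137430521-137430770, minus), Cpa1 (chr6:30638968-30639217, plus), which held no E-box, and Ctrl (chr8:105933863-105934112, minus); capitals mark the E-box or TC-box in either orientation:

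Cela2a: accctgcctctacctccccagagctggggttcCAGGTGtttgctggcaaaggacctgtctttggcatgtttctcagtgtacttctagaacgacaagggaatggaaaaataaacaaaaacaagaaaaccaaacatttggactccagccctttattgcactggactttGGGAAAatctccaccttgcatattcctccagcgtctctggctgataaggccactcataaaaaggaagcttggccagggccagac
Cela3b: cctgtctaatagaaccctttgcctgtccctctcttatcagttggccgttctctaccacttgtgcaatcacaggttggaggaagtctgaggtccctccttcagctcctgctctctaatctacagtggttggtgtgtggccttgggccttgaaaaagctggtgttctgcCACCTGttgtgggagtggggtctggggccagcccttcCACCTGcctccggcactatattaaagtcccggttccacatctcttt
Cpa1: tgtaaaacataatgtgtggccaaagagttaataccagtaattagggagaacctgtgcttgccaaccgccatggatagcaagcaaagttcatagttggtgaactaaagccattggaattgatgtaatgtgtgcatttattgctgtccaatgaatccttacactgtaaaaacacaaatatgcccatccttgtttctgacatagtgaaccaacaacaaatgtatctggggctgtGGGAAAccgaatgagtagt
Ctrl: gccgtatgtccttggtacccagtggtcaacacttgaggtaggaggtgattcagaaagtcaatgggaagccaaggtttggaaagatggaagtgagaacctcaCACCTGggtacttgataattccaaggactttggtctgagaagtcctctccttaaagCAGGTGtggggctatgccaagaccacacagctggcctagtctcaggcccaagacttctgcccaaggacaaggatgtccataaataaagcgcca

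The lists that stood lowest were those of blood, vessels and matrix, and none of their members passed the test. Of 14 genes of erythroid cells and platelets 12 were lower (53.2% of all genes), 3 of them at an unadjusted p under 0.05 (1.69% of all genes). Their median was -0.52, or -0.22 without vehicle replicate 3. Within slide 1 the median was 0.10, with 8 of the 14 higher, and within slide 2 it was -0.96. Those 3 were all globins: Hbb-b1 and the alpha pair Hba-a1 and Hba-a2. The Hba-a1 probe is annotated to both alpha-globin transcripts, so the Hba-a1 and Hba-a2 values are not separate measurements of each gene. The alpha-globin signal of that probe read -1.02, -0.28, 1.52, -2.20 and 0.06 at 48 h and 0.64, 0.28, 3.61, 2.12, 1.62 and -0.13 in vehicle. The groups overlapped, with vehicle replicate 3 the highest of all. The difference was -1.74 (SE 0.73), or -1.05 with slide as a block. Hbb-b1, a beta-globin gene, was well above background on only 1 of 5 and 4 of 6 arrays and differed by -2.26, but by 0.69 within slide 1 and -0.68 with slide as a block. Klf1, the transcription factor of the erythroid lineage, differed by -0.51 (SE 0.28), or -0.82 with slide as a block.

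Endothelial genes were lower for 10 of 13 (53.2% of all genes), with a median of -0.36 (-0.05 within slide 2). Esam, an adhesion molecule of endothelial junctions, averaged -3.36 ± 0.41 (SD, n = 5) against -2.69 ± 0.63 (SD, n = 6), a difference of -0.66 (SE 0.30). Kdr, the main receptor for VEGF, differed by -0.53 (SE 0.26). Cdh5, VE-cadherin, was well above background on 3 of 5 and 5 of 6 arrays; it differed by -0.82 (SE 0.53), but by 0.18 within slide 2. Of 22 collagens and matrix genes 19 were lower (53.2% of all genes), 0 of them at an unadjusted p under 0.05 (1.69% of all genes). The median was -0.31, or -0.55 with slide as a block. Without single arrays it ran from -0.56 to -0.05, the latter without 48 h replicate 4, and it was -0.09 without vehicle replicate 2. Col1a1, the main fibrillar collagen, read 0.71, -0.19, 2.69, -0.73 and 0.49 at 48 h, so that replicate 3 stood far above the others, and 0.73 to 1.92 in vehicle. Col4a2 of the basement membrane differed by -0.55 (SE 0.45), and Tnc, the matrix protein tenascin C, by -0.30 (SE 0.20). Pdgfrb, a receptor of fibroblasts and pericytes, differed by -2.03 (SE 0.74), but was above background on 3 of 5 and 5 of 6 arrays. Ogn, a matrix proteoglycan chosen after its values were seen, differed by -2.99 (SE 0.71) and was above background on 1 of 5 and 5 of 6 arrays.

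**Figure D2:**
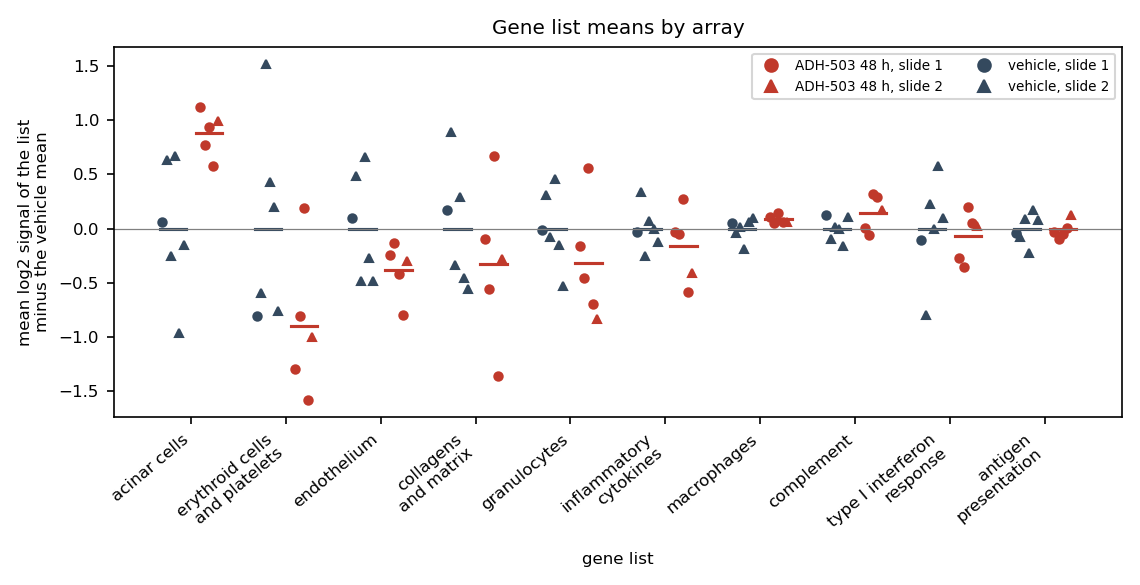
Mean log2 signal of 10 gene lists on each array, as the difference from the mean of the vehicle arrays; red is ADH-503 48 h (n = 5), dark is vehicle (n = 6), circles are slide 1, triangles slide 2, and bars are group means. The acinar list stands above on the 48 h arrays with vehicle replicates 2 and 4 reaching into their range, and in the other lists the groups overlap widely.

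Cells that carry CD11b were read through 3 lists. Macrophage genes were close together on all arrays: the list averaged 3.76 ± 0.04 (SD, n = 5) at 48 h and 3.67 ± 0.10 (SD, n = 6) in vehicle. In this list 14 of 15 genes were higher (46.8% of all genes), 1 had an unadjusted p under 0.05 (0.87% of all genes), and the median was 0.09. With slide as a block the median was 0.15. It was 0.01 within slide 1 with 9 of 15 higher, 0.05 without 48 h replicate 3 and 0.04 without vehicle replicate 4 with 10 of 15 higher each, and 8 of 15 were higher after normexp correction and quantile normalization. The gene of unadjusted p under 0.05 was C1qa, a chain of complement C1q, higher by 0.23 (SE 0.11). Csf1r, the receptor that macrophages need to survive, was higher by 0.14 (95% confidence interval -0.06 to 0.33), and Fcgr3, an antibody receptor, by 0.16 (-0.05 within slide 1). For comparison, all 20 ribosomal protein genes were higher, with a median of 0.07, and 11 of 12 housekeeping genes, with a median of 0.06; both medians were 0.15 with slide as a block. Monocyte genes had a median of 0.05. Granulocyte genes were lower for 13 of 16 (53.2% of all genes), with a median of -0.30. That median was -0.13 without 48 h replicate 4, -0.55 without 48 h replicate 3, -0.09 within slide 1 and -0.87 within slide 2. Mpo, the peroxidase of neutrophil granules, read -1.38, -1.33, -1.94, -2.23 and -2.55 at 48 h and -1.75, -1.04, -1.80, -1.20, -0.31 and 0.20 in vehicle. The 48 h arrays lay in the lower part of the vehicle range or below it, and the difference was -0.90 (SE 0.42; 0.04 within slide 1 and -0.57 with slide as a block). Ltf (-0.73) and Ngp (-0.83), both of neutrophil granules, had SEs of 0.54 and 0.76, and Ngp differed by -1.28 with slide as a block.

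Inflammatory cytokines leaned lower: 16 of 18 (53.2% of all genes), 0 at an unadjusted p under 0.05 (1.69% of all genes). The median was -0.18, or -0.34 with slide as a block. It was -0.09 without vehicle replicate 2 and -0.06 without vehicle replicate 2 and 48 h replicate 5, and without 48 h replicate 4 12 of 18 were lower. None of the named members was apart between groups. Tnf, a cytokine of activated macrophages, read 3.03, 3.23, 3.37, 2.70 and 2.21 at 48 h and 2.88 to 3.28 in vehicle; 48 h replicates 4 and 5 were the low ones, and the difference was -0.19, or -0.35 with slide as a block. Ptgs2, cyclooxygenase-2, differed by -0.22 (SE 0.16), and Il12b, a chain of the T cell-activating interleukin-12, by -0.21 (SE 0.18); with slide as a block they differed by -0.36 each. Lif, a cytokine of the interleukin-6 family, differed by -0.52 (SE 0.40) and by -1.20 (SE 0.33) with slide as a block, while the difference was 0.000225 without vehicle replicate 2 and 48 h replicate 5. The chemokines had medians of -0.10, 0.05 and 0.02 in the neutrophil-, monocyte- and T cell-recruiting lists. Of any of these lists 0 genes had an unadjusted p under 0.05 (2.56% of all genes). With slide as a block the neutrophil-recruiting median was -0.26 and all 8 genes were lower. Cxcl9, a T cell attractant induced by interferon gamma, differed by -0.43 (SE 0.51), but by 0.08 with slide as a block. Toll-like receptor and NF-kB genes had a median of -0.03 over 21 genes.

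The list medians of T cell immunity lay near 0. They were -0.02 for T cells, -0.07 for regulatory T cells, -0.08 for cytotoxic lymphocytes, -0.10 for cross-presenting dendritic cells, 0.00 for antigen presentation and 0.01 for immune checkpoints. In these lists 0 genes had an unadjusted p under 0.05 (2.56% of all genes). Single members lay further from 0, from -0.76 to 0.31 for T cells and from -0.57 to 0.92 for cytotoxic lymphocytes. Some medians turned between the slides: within slide 1 and slide 2 the T cell median was 0.28 and -0.17, and that of regulatory T cells 0.16 and -0.57. Cd8a, which marks cytotoxic T cells, ran from -3.09 to -1.50 at 48 h and from -2.86 to 0.35 in vehicle. Clec9a and Xcr1, receptors of cross-presenting dendritic cells, differed by -0.20 (SE 0.19) and -0.32 (SE 0.24), or -0.30 and -0.54 with slide as a block. Foxp3, the factor of regulatory T cells, differed by -0.14 (95% confidence interval -0.55 to 0.27; 0.07 within slide 1 and -0.37 with slide as a block). Of 23 type I interferon genes 18 were lower (53.2% of all genes), with a median of -0.05. With slide as a block 14 were lower. Without single arrays the number lower ran from 8 to 22 and the median from -0.22 to 0.02. Mx2, an antiviral GTPase, differed by -0.39 (SE 0.23), but by 0.09 within slide 1. The complement list was higher for 13 of 15 (46.8% of all genes), with a median of 0.14. That median was 0.06 with slide as a block, 0.08 without 48 h replicate 3 and near 0 within slide 1 (-0.000356). C4b, a component of the classical pathway, was higher by 0.38 (SE 0.23), or -0.02 within slide 1 and 0.16 with slide as a block. Ccl21a, which guides T cells and dendritic cells into lymphoid tissue, was higher by 1.21 (SE 0.44), yet differed by -0.38 within slide 1, and the lymphoid tissue list as a whole had a median of -0.10, which became 0.38 with slide as a block.

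**Figure D3:**
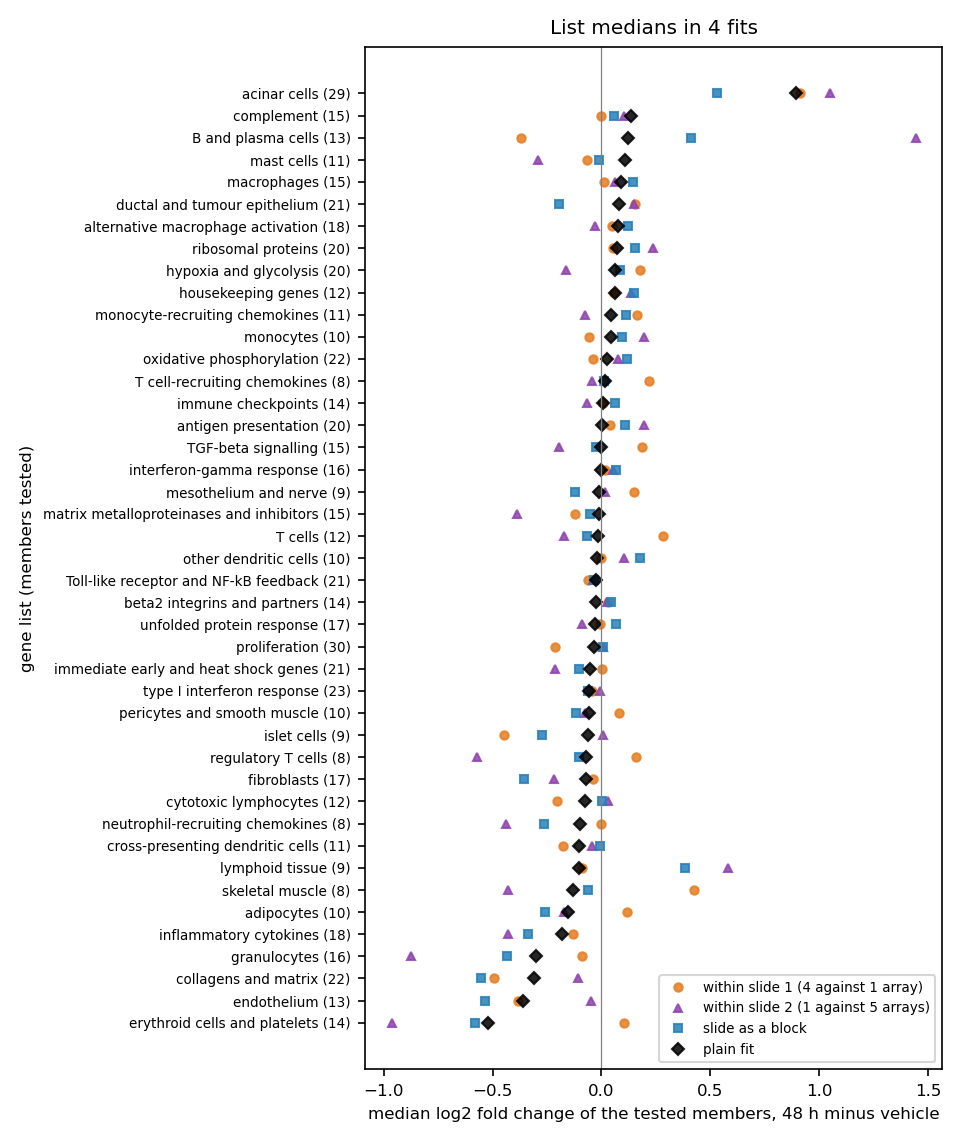
Median difference (48 h minus vehicle, log2) of the tested members of each of 43 gene lists, with the number of members tested in brackets, in the plain fit (black), with slide as a block (blue) and within slide 1 and slide 2 (orange, purple). The acinar list is at 0.53 to 1.05 in the 4 fits, and several small lists, such as B and plasma cells, lie on opposite sides of 0 within the 2 slides.

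The ductal and tumour epithelium list had no settled direction. Its median was 0.08 with 12 of 21 higher, but -0.20 with slide as a block, where 16 of 21 were lower. Without single arrays it ran from -0.11 (48 h replicate 1) to 0.51 (48 h replicate 4), with 5 to 19 higher. Tff2, a secreted trefoil peptide, was higher by 0.98 (SE 0.47), or 0.48 with slide as a block. Tgfb2, a TGF-beta ligand, was higher by 1.16 (SE 0.43), or 0.76 with slide as a block, although a second probe went the other way. Chac1, a glutathione-degrading enzyme of the unfolded protein response, read -2.90, -2.70, -1.73, -1.88 and -2.44 at 48 h and -1.32, -1.95, -1.69, -1.70, -1.63 and -1.65 in vehicle. All 48 h arrays lay below the vehicle mean, with overlap only at vehicle replicate 2, and the difference was -0.67 (SE 0.20), or -0.84 with slide as a block. The rest of that list lay between -0.17 and 0.13. Proliferation genes had a median of -0.03 (-0.21 within slide 1), hypoxia and glycolysis genes 0.06 and oxidative phosphorylation genes 0.03. None of them had an unadjusted p under 0.05 (2.56% of all genes).

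The 12 named genes with the smallest p that were higher at 48 h had differences of 0.38 to 0.79 and unadjusted limma p from 0.000922 to 0.00688. They kept their sign within both slides. The genes were chosen from these same values and for the same sign with slide as a block, so this agreement is largely built in. Particl, a long non-coding RNA, read -3.93, -4.16, -4.18, -4.09 and -4.35 at 48 h and -4.76, -4.43, -5.12, -5.12, -4.67 and -5.53 in vehicle. The groups did not overlap, and the difference was 0.79 (SE 0.19). Cul5, a scaffold of ubiquitin ligases, was higher by 0.40 (SE 0.11), and Asb13, which belongs to a family of substrate adaptors for such ligases, by 0.39 (SE 0.12). Rnase4, a secreted ribonuclease, was higher by 0.52 (SE 0.15), or 0.27 with slide as a block, and Ntsr1, the neurotensin receptor, by 0.78 (SE 0.22). Mexis, a long non-coding RNA known from macrophage cholesterol efflux, was higher by 0.78 (SE 0.24) with overlapping groups. Zfp438 (0.75) and Rab11fip2 (0.41), a Rab11 effector of vesicle recycling, had no overlap between groups, nor had Asah2 (0.43), a neutral ceramidase. Ntsr1 and Zfp438 were dim: each was well above background on only 4 of 6 vehicle arrays. Smim7, Ift27 and Adgb complete the set. For Rab11fip2, Asah2, Smim7, Ift27 and Adgb another probe of the gene went the opposite way.

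The 12 that were lower had differences of -1.22 to -0.33 and unadjusted limma p from 0.000623 to 0.00682. They also kept their sign within both slides, which the same choice favoured. Cldn19, a tight junction claudin, read -5.83, -4.65, -4.94, -4.86 and -5.81 at 48 h and -3.96, -4.39, -4.36, -4.04, -4.30 and -4.35 in vehicle. All 48 h arrays were below all vehicle arrays, but the probe was above background on only 3 of the 5, and the difference was -0.98 (SE 0.23). Kdm8, a JmjC-domain oxygenase, differed by -1.08 (SE 0.26) and overlapped through vehicle replicate 5. Glra4, a glycine receptor subunit, differed by -0.58 (SE 0.15) without overlap. Mtnr1a, a melatonin receptor, differed by -1.22 (SE 0.37), or -0.15 within slide 1. Lrig1, which restrains growth factor receptors, differed by -0.81 (SE 0.25), yet by only -0.03 within slide 1, and a second probe went the other way, as it did for Tcp11. Med7, a Mediator subunit, differed by -0.33 (SE 0.10). The set also holds the olfactory receptors Olfr213 and Olfr749 and the genes Psors1c2, Actl10 and Chac1, all with mean signals below the 75th percentile of the array.

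**Figure D4:**
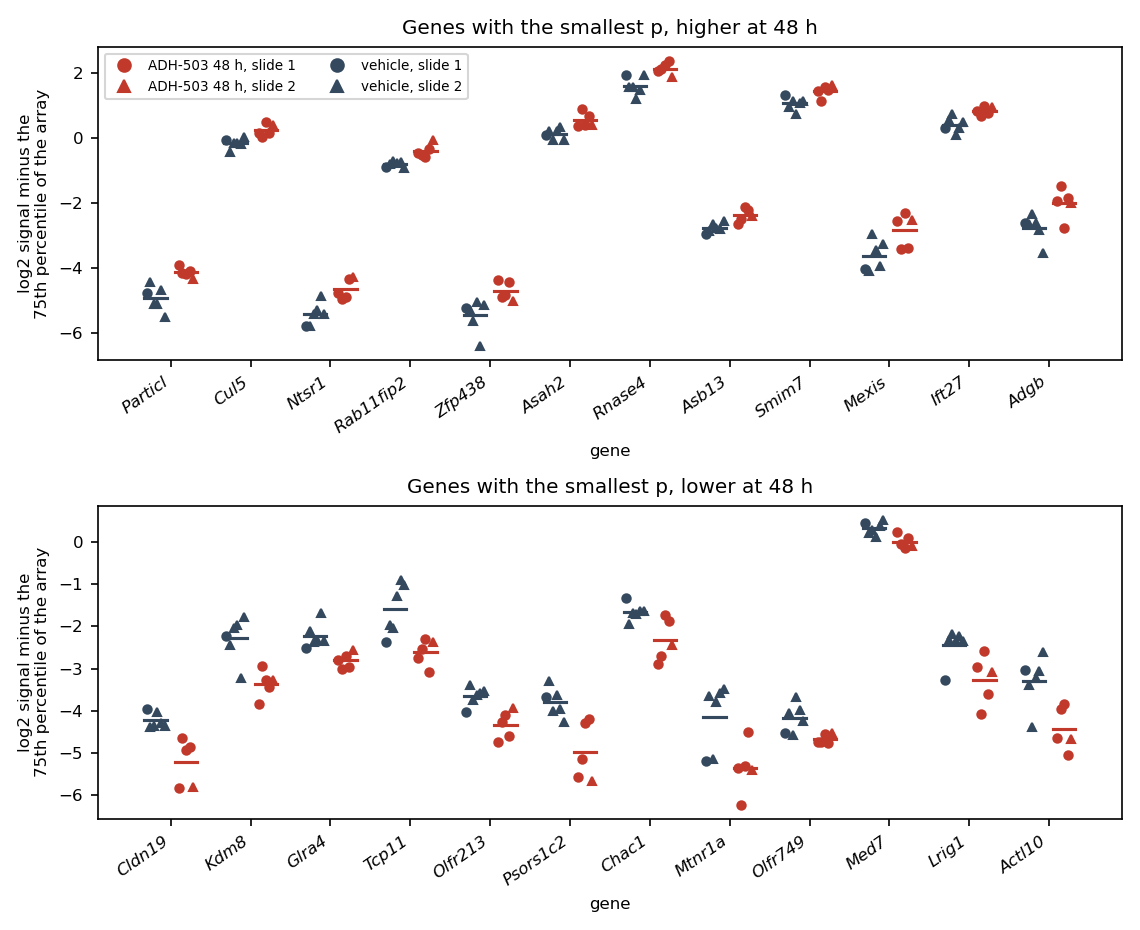
Log2 signal relative to the 75th percentile of the array for the 12 genes of smallest p in each direction (top, higher at 48 h; bottom, lower), by array; red is ADH-503 48 h (n = 5), dark is vehicle (n = 6), circles are slide 1, triangles slide 2 and bars are group means. Groups are separated for Particl, Rab11fip2, Zfp438 and Asah2 above and for Cldn19 and Glra4 below, and overlap for the others.

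Of the 22 genes whose 48 h arrays lay wholly above the vehicle arrays, 6 were acinar genes, and of the 21 wholly below, 0 belonged to any of the lists. The lists hold only 614 of the 30582 genes tested, so a count of 0 among 21 is near that share. All 43 genes without overlap kept their sign with slide as a block. Genes without overlap have the same sign within both slides by the way they were chosen, so this is no separate support. Over the 43 genes the differences ran from -2.82 (Dnaaf4) to 2.50 (1700119I11Rik). Among those outside the acinar list were Trmt6, a tRNA methyltransferase subunit, with 0.35 (SE 0.12), and Dph7, of diphthamide synthesis, with 0.49 (SE 0.18). Also outside it were Morn4 with -0.28 (SE 0.11) and Slc2a7, a sugar transporter, with -1.43 (SE 0.56). Slc2a7 was not well above background on any 48 h array and was so on 3 of 6 vehicle arrays. The gene 1700119I11Rik was well above background on 4 of the 48 h arrays and on no vehicle array. Both differences thus rest in part on signals not well above background. Trmt6, Dph7, Morn4 and Slc2a7 were chosen after their values were seen, as were the 2 at the ends of the range. Dnaaf4, a gene of cilium assembly chosen in the same way, was not well above background on any 48 h array and was so on 4 of 6 vehicle arrays. Its 48 h signals were also replaced, on each array, by the higher of the lowest signal among probes well above background and the probe's own. The 48 h mean was then 1.58-fold lower than the vehicle mean (limma adjusted p = 0.99998). That vehicle mean takes all 6 arrays, those not well above background included. The value ignores the spread between arrays, so it is no lower limit of the difference.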

How the data were processed

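RNA of 16 tumour samples was measured on 1-colour arrays labelled with Cy5, and groups came from the treatment and time labels. The submitters' processing notes name Agilent Feature Extraction 11.5.1.1 as the scanner software. The deposited processed signal is, per the file headers, a linear intensity after background subtraction; arrays were not scaled to each other, and probe coordinates refer to mm9. A second table deposited by the authors holds log2 values and was quantile-normalized (sorted columns lie within 0.0043 of each other); it served as an alternative.

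Control and outlier spots were left out. Spots of a probe were averaged as log2 processed signals, and the 75th percentile of the array was subtracted. Names came from a RefSeq gene table (GRCm38.p6, names only): accessions named 32989 probes, symbols or synonyms 10747, and the other 12869 carry the name of the array design. Genes were tested whose probe stood well above background on 5 or more of 16 arrays. limma 3.58.1 in R 4.3.3 fitted 3 groups (lmFit, robust eBayes), with Benjamini-Hochberg adjustment over all genes, 2-sided, threshold 0.05. Scripts were tested on simulated data. No spot was saturated.

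The comparison, the 43 gene lists and the tests were chosen with earlier results of these data known, so no list is independent support. Named genes are Itgam and Itgb2, in each direction the 12 genes of smallest p (with a proper symbol, 3 or more arrays above background in both groups, and the same sign with slide as a block), and the 5 or fewer members of smallest p in each list described; others are marked as chosen after their values were seen. Alternatives covered the normalization, background correction, scaling, filter, arrays in the fit, slide, probes of a gene, variance model, and leaving out arrays.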

Additional observations from a re-analysis of the deposited data

Results flagged for a closer look

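Single arrays stood apart from the rest of their group in 15 of 306 groups of values examined (each named gene and each list mean, in each of the 2 groups); chance alone sets apart about 1 in 20. In vehicle, the lowest values were replicate 1 for Lrig1 (-3.28, the others -2.35 to -2.18), replicate 5 for Pdgfrb (-5.40, the others -3.78 to -3.05), replicate 6 for Ogn (-7.25), replicate 3 for Ptgs2 (1.58), and replicate 4 for C1qb (5.02), Cxcl16 (4.55), the oxidative phosphorylation list (mean 2.33) and the housekeeping list (mean 3.18). The highest were replicate 3 for Treml4, a monocyte receptor (2.52, the others 1.24 to 1.43), and for the T cell list (mean 0.62), and replicate 4 for Ptcd3 (0.49). At 48 h, replicate 4 was the lowest for Cela2a (3.66, the others 3.97 to 4.05) and the highest for Maml2 (0.69), replicate 2 was the highest for the non-coding RNA Dubr (-0.11), and replicate 3 was the highest for the fibroblast list (mean -0.32, the others -1.32 to -1.11).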

How the results depend on the processing

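The count of 0 genes at an adjusted p under 0.05 held in 32 of 35 alternatives; it was 1 with no filter on dim probes (4930448H16Rik), without vehicle replicate 1 (BE945716) and without vehicle replicate 5 (Dnaaf4), a range of 0 to 1 over arrays left out. Genes higher at an unadjusted p under 0.05 numbered 1084 within slide 1 and 646 within slide 2, and lower ones 318 and 1429, where a lone array is assumed to vary like the other groups; leaving out single arrays gave 192 to 374 and 351 to 1001, the latter without vehicle replicate 1. Slide as a block together with leaving out single arrays was chosen after seeing the data: without vehicle replicate 1 it gave 1027 higher and 2538 lower, an acinar median of 0.29 and a cytokine median of -0.48, and without 48 h replicate 5 an acinar median of 0.20.

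Of 1087 list medians under alternatives 18 moved by more than the spread between arrays. Within slide 1 they were T cells (0.28), adipocytes (0.12), skeletal muscle (0.43) and proliferation (-0.21). Within slide 2 they were monocytes (0.19), granulocytes (-0.87), regulatory T cells (-0.57), B and plasma cells (1.44), skeletal muscle (-0.43), lymphoid tissue (0.58), antigen presentation (0.20), immediate early genes (-0.21) and ribosomal proteins (0.24). With slide as a block they were lymphoid tissue (0.38) and housekeeping genes (0.15). With slide as a block and vehicle replicate 1 left out they were acinar cells (0.29) and inflammatory cytokines (-0.48). With slide as a block and 48 h replicate 5 left out the acinar median moved as well (0.20).

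Of 110 named genes 82 kept their sign throughout. Within slide 1 it turned for Itgam (0.00768), Itgb2 (-0.0201), Itgad (0.72), Icam1 (0.0507), Fcgr3 (-0.0543), F13a1 (-0.14), Mpo (0.0353), Tlr3 (-0.18), Cd5 (0.24), Foxp3 (0.0660), Tbx21 (0.32), Hbb-b1 (0.69), Ccl21a (-0.38), Tnf (0.10), Lyve1 (-0.0673), C4b (-0.0180), Mx2 (0.0930), Cd86 (0.0631) and Lag3 (0.55). Within slide 2 it turned for Itgam (0.26), Fpr1 (0.25), Gzmk (0.0498), Ppy (0.00721), Cdh5 (0.18), Il12a (0.25) and Ccl12 (-0.0748). It turned with slide as a block for Itgam (0.0714) and Cxcl9 (0.0842), with the deposited table for Itgam (0.00322), with the mean of all probes for Itgam (0.11) and Ptcd3 (0.00126), and without vehicle replicate 2 and 48 h replicate 5 for Itgam (0.0149), Lif (0.000225) and Tnf (0.00342). Leaving out single arrays gave Itgam -0.0737 to 0.0858. The cause was not tested.

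No paired analysis was possible because the labels give no replicate numbers. With 5 and 6 arrays, mostly on different slides, group and slide are nearly confounded, and the number of arrays limits the precision.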
